A study of Mus musculus with 6 samples.

Results

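The transcripts of 10 genes that keep T cells resting and naive were followed in CD4 T cells labelled as WT or AMPK KO. The transcription factors among them are Foxo1, Foxo3, Lef1, Tcf7, Bach2, Satb1, Klf3, Foxp1 and Ets1. The other gene, Txnip, is not a transcription factor but a metabolic gene linked to both FOXO factors and AMPK. The 10 genes were taken by symbol, as known regulators, with earlier results of these data known, from the 23282 genes that each library lists. All 10 passed the filter on low values, as did 11279 genes in all. The mice were C57BL/6 animals stated to be female and 6 to 8 weeks old. Both groups carried floxed Prkaa1 (Prkaa1 fl/fl), the gene of the catalytic subunit AMPKα1. AMPK KO mice also carried CD4Cre, a Cre recombinase under Cd4 control that is active from the thymus onward in cells that express or once expressed CD4, so that other T cells of these mice carry the deletion too. WT mice lacked Cre. Of each group, 3 samples were sequenced. CD4 T cells were taken from the spleen and the lymph nodes, left to rest in medium over 1 h, and then stimulated through CD3 and CD28 with antibodies (each 2 µg/mL). The length of the stimulation is 24 h in the labels and 6 h in the methods text. All values are therefore those of stimulated cells. The study's text calls the samples of a group biologically independent, nothing in the labels says that they came from separate mice, and p-values measure the spread between these samples.

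AMPK is a kinase that senses low cellular energy. Naive T cells stay small and out of the cell cycle through a set of transcription factors, and stimulation through the T cell receptor lowers the activity of many of them. FOXO factors are kept out of the nucleus by AKT, and AMPK can phosphorylate them as well. TCF1 (the product of Tcf7) and LEF1 bind the same DNA motif and act in T cell development and in the naive and stem-like memory states. BACH2 represses effector genes, KLF3 is a repressor of the Krüppel-like family, ETS1, SATB1 and FOXP1 act in T cell development and quiescence, and TXNIP binds thioredoxin and limits glucose uptake.

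The libraries read only the 3′ ends of transcripts, and each WT library held 9575122 to 10168038 reads assigned to genes and each AMPK KO library 10515321 to 11185353. Rn45s, the ribosomal RNA precursor, took 22.4% ± 2.21 (SD, n = 3) of the reads across the WT libraries and 9.89% ± 1.24 (SD, n = 3) across those of AMPK KO. Prkaa1 itself was listed at log2 values of 4.64, 5.24 and 4.86 in WT and of 4.08, 4.72 and 4.67 in AMPK KO. The groups overlapped for this gene, with a log2 fold change of -0.43 (SE 0.25, adjusted p = 0.357), and it is not stated in the sources used here whether its 3′ end lies in the deleted stretch, so that it checks nothing about the deletion. Xist, which is transcribed from the inactive X chromosome of females, was low in WT (0.93 to 2.16) and high in AMPK KO (7.55 to 7.92), whereas the Y-linked gene Ddx3y was at 8.44 to 8.53 in WT and still at 6.93 to 7.28 in AMPK KO. The sex of the animals behind the libraries and the genotype cannot be told apart in any comparison given here.

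Of the 10 genes, 5 were lower in AMPK KO by limma with Benjamini-Hochberg adjustment over all genes tested (adjusted p under 0.05), namely Tcf7, Klf3, Lef1, Bach2 and Ets1, and none was higher. In the background of all 11279 genes, 3.1% were called lower, 2.54% higher and 5.65% in either direction. For 7 of the 10, the WT and AMPK KO samples did not overlap, against 25.6% of all genes tested. The means of 8 were lower in AMPK KO and those of 2 were higher. The median log2 fold change of the 10 was -0.71, beside 0.02 over all genes tested, and it was -0.45 without AMPK KO replicate 2. The count of 5 was 3 without WT replicate 1, WT replicate 3 or AMPK KO replicate 1, 4 without WT replicate 2 and 6 without AMPK KO replicate 2. The summed normalized level of T cell markers was 2611 to 2775 in WT and 2064 to 2466 in AMPK KO, and in RNA from whole samples fewer T cells and less RNA per cell cannot be told apart.

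**Figure D1:**
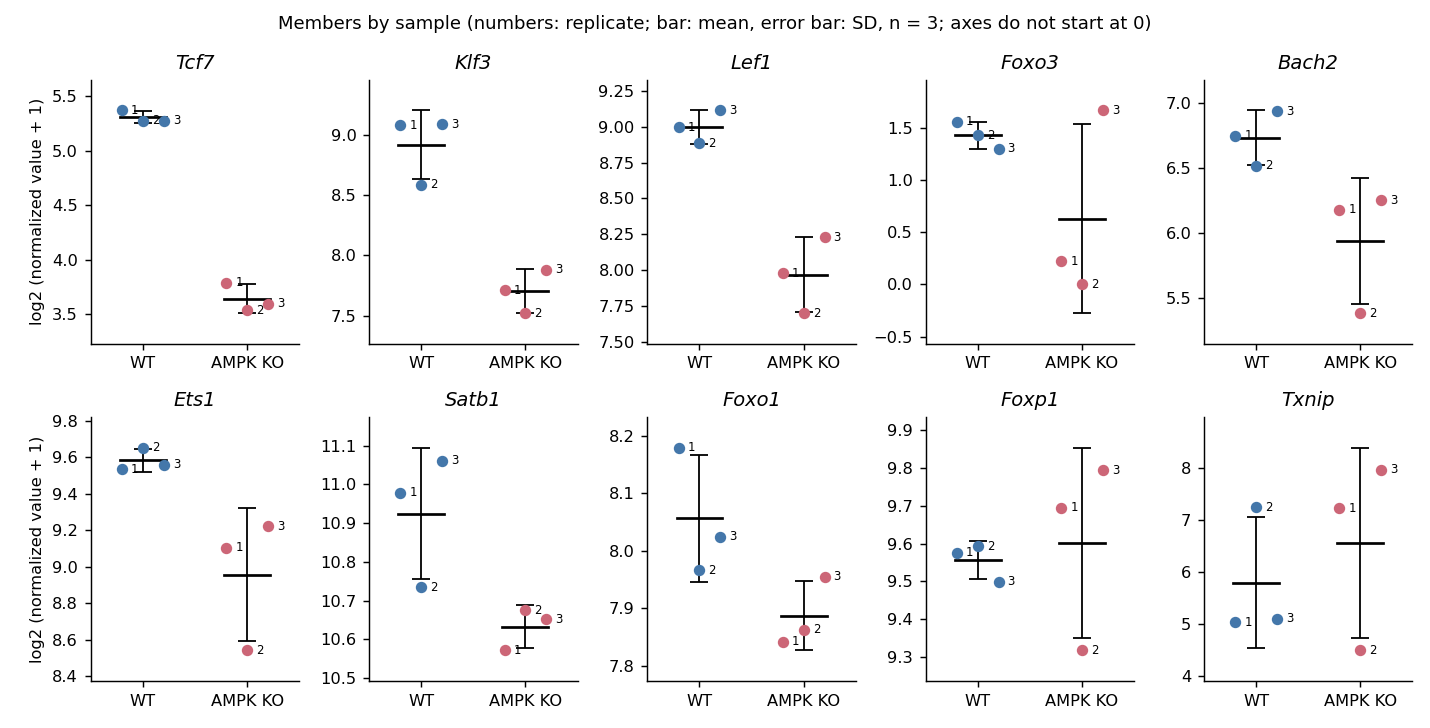
Each panel shows 1 gene, with the deposited log2 value on the vertical axis for the 3 WT (blue) and 3 AMPK KO (red) samples, numbered by replicate, with the mean as a bar and the SD as an error bar. The groups are apart for Tcf7, Klf3, Lef1, Bach2, Ets1, Satb1 and Foxo1, and overlap for Foxo3, Foxp1 and Txnip.

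**Figure D2:**
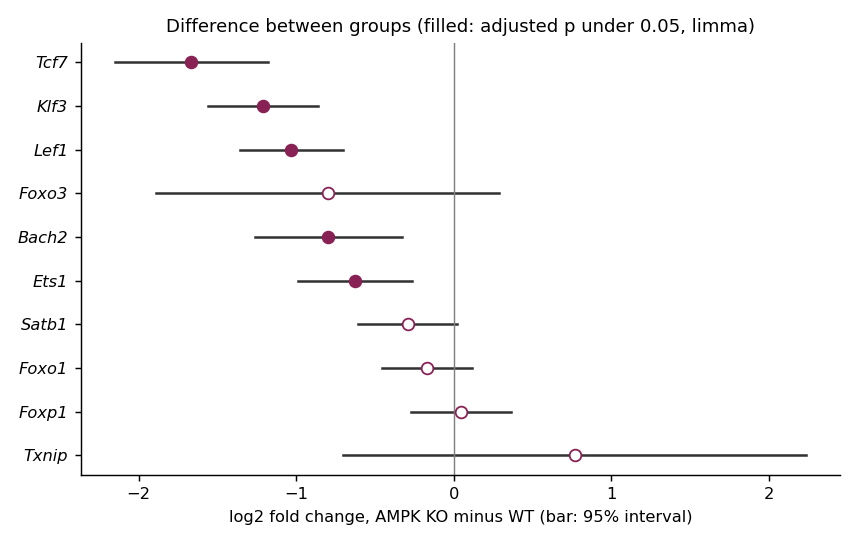
Log2 fold change of each gene, AMPK KO minus WT, with its 95% interval from limma, where filled points have an adjusted p under 0.05. The 5 filled points run from -1.66 for Tcf7 to -0.63 for Ets1, and the interval of Txnip is the widest, from -0.70 to 2.24.

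Tcf7 encodes TCF1 and lies at chr11:52252371-52283014 on the minus strand (mm10). Its log2 values were 5.37, 5.28 and 5.27 in WT and 3.79, 3.54 and 3.60 in AMPK KO. Every AMPK KO sample was below every WT sample, and the samples within a group lay close together (5.31 ± 0.06 and 3.64 ± 0.13, SD, n = 3). The log2 fold change was -1.66 (SE 0.23, 95% interval -2.15 to -1.18, adjusted p = 0.000719), and on the linear scale the AMPK KO mean was 29.8% of that in WT. The values rest on 333 to 377 reads per WT library and 114 to 152 per AMPK KO library. Tcf7 was the only one of the 10 genes that was called lower under each of the 16 alternatives. These include a fit with a division of the libraries that was taken from the values themselves. In the annotation, the 3′ end of Tcf7 also lies within a long noncoding gene on the same strand, Gm26551, which the libraries do not list.

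Lef1, the close partner of Tcf7, lies at chr3:131110471-131224356 on the plus strand. It was at 8.996, 8.885 and 9.116 in WT and at 7.979, 7.70 and 8.228 in AMPK KO, from 4696 to 4900 and 2222 to 3554 reads. The groups stood apart by more than the range within either of them. The log2 fold change was -1.03 (SE 0.15, 95% interval -1.36 to -0.70, adjusted p = 0.0016), and the AMPK KO mean was 49.3% of the WT mean. Lef1 was called lower with each library left out. It missed the threshold in 2 of 16 alternatives, without a filter on low values (adjusted p = 0.126) and with a spread estimate that has no trend with the mean (adjusted p = 0.0736). The lowest adjusted p of Lef1, 5.19e-07, came from the fit with the division of the libraries, which was taken from the values themselves.

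The DNA before the start sites of these genes was searched for motifs of the same factor families, on both strands, in the 250 bases before each start in RefSeq's table of build GRCm38.p6. The table holds 19 starts of 9 of the 10 genes, and Ets1 has no entry. The TCF/LEF motif (CTTTGAA or CTTTGAT or CTTTGTA or CTTTGTT) was in 5 windows, of Lef1, Satb1 and Foxp1, and the windows of Satb1 that hold it overlap. It is found in 14.8% of the 32851 promoters of that table. The ETS motif (CCGGAAGT, in 2.88% of promoters) and the KLF motif (CCACACCC, in 3.2%) were each in 1 window, that of start 2 of Tcf7. The AP-1 motif (TGACTCA, in 4.46%), which overlaps the sites bound by BACH2, was in 0 of the 19 windows. None of the windows of Foxo1, Foxo3, Bach2 and Klf3 held any of these letters. A match is a description of the sequence and not a binding site. The windows of Lef1 and Tcf7 with matches are printed because both genes fell, with the motif in capitals.
Lef1, start 4, chr3:131156044-131156293, plus strand, TCF/LEF motif 147 bases before the start: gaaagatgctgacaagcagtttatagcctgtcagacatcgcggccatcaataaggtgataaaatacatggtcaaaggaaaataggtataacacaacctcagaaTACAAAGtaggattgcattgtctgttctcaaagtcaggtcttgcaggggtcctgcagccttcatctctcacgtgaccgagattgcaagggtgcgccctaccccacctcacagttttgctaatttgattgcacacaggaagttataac
Tcf7, start 2, chr11:52282596-52282845, minus strand, KLF motif 69 and ETS motif 26 bases before the start: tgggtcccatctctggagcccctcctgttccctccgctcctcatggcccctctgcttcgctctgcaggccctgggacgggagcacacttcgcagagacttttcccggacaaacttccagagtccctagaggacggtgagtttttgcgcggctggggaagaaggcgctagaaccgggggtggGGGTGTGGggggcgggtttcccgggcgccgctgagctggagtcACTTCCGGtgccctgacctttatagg

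Of 12 genes whose products work with TCF1 and LEF1, 11 were tested, 2 were lower and none was higher, and the median log2 fold change was -0.05, with values of 0.04 without AMPK KO replicate 2, -0.16 without WT replicate 1 and -0.26 without AMPK KO replicate 3. Tle4, a Groucho corepressor that binds TCF factors, had a log2 fold change of -0.88 (SE 0.16, adjusted p = 0.00592). Gsk3b, a kinase that marks β-catenin for destruction, had one of -0.83 (SE 0.14, adjusted p = 0.00432). Ctnnb1, the gene of β-catenin, overlapped between the groups at 0.07 (adjusted p = 0.83). The count of 2 fell to 1 without WT replicate 1 or WT replicate 3. Tcf7l1 and Tcf7l2, the other genes of this family, had log2 fold changes of -0.12 (adjusted p = 0.902) and -0.01 (adjusted p = 0.991).

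Klf3 lies at chr5:64803388-64832901 on the plus strand. It was at 9.08, 8.59 and 9.08 in WT and at 7.71, 7.52 and 7.88 in AMPK KO, from 3832 to 4975 and 1965 to 2795 reads. WT replicate 2 was the lowest of its group and still above each AMPK KO sample. The log2 fold change was -1.21 (SE 0.16, 95% interval -1.56 to -0.86, adjusted p = 0.000719), and the AMPK KO mean was 42.8% of the WT mean. As for Lef1, the call held with each library left out, and it was lost without a filter (adjusted p = 0.126) and without the trend (adjusted p = 0.0585).

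Among the close relatives of the 10 genes, 21 of 24 were tested, 2 were higher and 1 was lower, with a median of -0.08 (-0.17 to -0.19 without WT replicate 1, AMPK KO replicate 1 or AMPK KO replicate 2). Klf4, a relative of Klf3 that restrains T cell proliferation, rose by 0.76 (SE 0.18, adjusted p = 0.0253), and it passed with AMPK KO replicate 2 left out and with no other sample left out. Klf2, which maintains T cell quiescence and homing and is a target of FOXO1, was at 10.16 to 10.32 in WT and at 10.42 to 10.61 in AMPK KO. Its groups did not overlap, the difference of 0.28 (SE 0.14, adjusted p = 0.265) did not pass the test, and its sign was opposite to that of Klf3. The count of 3 among the relatives was 0 without WT replicate 1 or WT replicate 3, 1 without AMPK KO replicate 1, 2 without AMPK KO replicate 3 and 6 without AMPK KO replicate 2.

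Bach2 lies at chr4:32238804-32586108 on the plus strand. It was at 6.75, 6.52 and 6.94 in WT and at 6.18, 5.38 and 6.25 in AMPK KO, from 905 to 1075 and 437 to 894 reads. AMPK KO replicate 2 was the lowest sample, and the other two AMPK KO samples lay not far below WT. The log2 fold change was -0.80 (SE 0.22, 95% interval -1.26 to -0.33, adjusted p = 0.046), just inside the threshold, and it passed in 7 of 16 alternatives, with adjusted p values from 0.000952 to 0.432. The lowest of these came from the fit with the division of the libraries, which was taken from the values themselves. The call was lost without WT replicate 1 (adjusted p = 0.181), WT replicate 3 (adjusted p = 0.216) or AMPK KO replicate 1 (adjusted p = 0.0907), and the fold change was -0.95 to -0.52 as libraries were left out. With the replicate number as a block, the adjusted p was 0.101.

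Bach2os, a transcript on the opposite strand inside Bach2, moved in the same direction at far lower levels, with log2 values of 2.16, 1.38 and 2.21 in WT and 0.51, 0.13 and 0.12 in AMPK KO. Its log2 fold change was -1.67 (SE 0.45, adjusted p = 0.0447), and it passed in 5 of 13 alternatives and with 1 of the libraries left out. Whether reads were counted by strand is not given in the sources used here. Of the 10 partners and opponents of BACH2, 1 was called. Hmox1, the haem oxygenase gene that BACH factors repress, was at 5.48, 5.03 and 5.49 in WT and at 6.19, 7.11 and 5.83 in AMPK KO, a rise of 1.05 (SE 0.27, adjusted p = 0.0352). This call was lost without any 1 of the WT samples or without AMPK KO replicate 1, and 5 of the 10 myeloid markers were higher in AMPK KO as well. The cells had been isolated with CD4 microbeads or a cell sorter, and the part of myeloid cells in the Hmox1 values was not tested. Prdm1, which encodes the effector factor BLIMP1 and is repressed by BACH2, had a log2 fold change of 0.54 (SE 0.30, adjusted p = 0.325), with no overlap between the groups, and one of 0.25 without WT replicate 3.

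Ets1 lies at chr9:32636221-32757820 on the plus strand. It was at 9.54, 9.65 and 9.56 in WT and at 9.10, 8.54 and 9.22 in AMPK KO, from 6664 to 8045 and 3989 to 7100 reads. WT samples lay within a narrow band (SD 0.06, n = 3), and AMPK KO replicate 2 was again the lowest (SD 0.36, n = 3). The log2 fold change was -0.63 (SE 0.17, 95% interval -0.99 to -0.27, adjusted p = 0.0425), with the AMPK KO mean at 66.0% of the WT mean, and it passed in 8 of 16 alternatives, with adjusted p values from 5.69e-05 to 0.374. The lowest of these came from the fit with the division of the libraries, which was taken from the values themselves. The call was lost without WT replicate 1 or WT replicate 3 (adjusted p = 0.161 each), WT replicate 2 (adjusted p = 0.0813) or AMPK KO replicate 1 (adjusted p = 0.102), with a fold change of -0.76 to -0.42. With the replicate block it was 0.153. Its relative Ets2 was at 8.41, 7.89 and 8.32 in WT and at 7.12, 7.53 and 6.98 in AMPK KO, a fall with a log2 fold change of -0.998 (SE 0.177, adjusted p = 0.00546) that was lost without WT replicate 1 or WT replicate 3. Of the other ETS genes, Fli1 (-0.37, adjusted p = 0.213), Elf1 (-0.48, adjusted p = 0.06), Elf4 (0.17, adjusted p = 0.71) and Gabpa (-0.05, adjusted p = 0.945) did not pass, although Elf1 did without WT replicate 2 or AMPK KO replicate 2.

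Satb1, a genome organizer of developing and naive T cells, lies at chr17:51736187-51833290 on the minus strand. It was at 10.98, 10.73 and 11.06 in WT and at 10.57, 10.68 and 10.65 in AMPK KO, from 17018 to 19123 reads over the 6 libraries. The groups did not overlap, although WT replicate 2 and AMPK KO replicate 2 lay 0.06 apart on the log2 scale. The difference of -0.29 (SE 0.15, 95% interval -0.61 to 0.02) had an adjusted p of 0.272. The exact permutation test gave p = 0.1, the smallest that 3 samples against 3 allow.

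Foxp1, which keeps naive T cells quiescent, lies at chr6:98925338-99522721 on the minus strand. It was at 9.58, 9.59 and 9.50 in WT and at 9.70, 9.32 and 9.80 in AMPK KO. The WT values lay between those of AMPK KO, and the log2 fold change was 0.05 (SE 0.15, 95% interval -0.27 to 0.37, adjusted p = 0.896). This interval does not reach the fold change of Ets1, Klf3, Lef1 or Tcf7. The difference between Foxp1 and those genes was not itself tested.

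Foxo1 lies at chr3:52268336-52353221 on the plus strand. It was at 8.18, 7.97 and 8.03 in WT and at 7.84, 7.86 and 7.96 in AMPK KO, from 2295 to 2939 reads over the 6 libraries. The groups came within 0.01 of each other without overlapping, and the difference of -0.17 (SE 0.13, 95% interval -0.46 to 0.12, adjusted p = 0.502) was called under none of the 16 alternatives. The AMPK KO mean was 88.7% of the WT mean on the linear scale. Foxo3, at chr10:42181841-42276755 on the minus strand, was close to the limit of detection, with 18, 17 and 13 reads in WT and 2, 0 and 26 reads in AMPK KO. In AMPK KO 1 sample was above all WT samples, and the other 2 were below the floor of 3 reads. With reads this few and this spread between the AMPK KO samples, the log2 fold change of -0.80 (SE 0.51, 95% interval -1.89 to 0.29, adjusted p = 0.394) has a wide interval. It was -2.65 with voom on the recovered reads, -2.19 with a pseudocount of 0.1 and -0.48 without AMPK KO replicate 2, and none of these passed. Foxo4, the third FOXO gene of T cells, was at 6.41 to 6.71 in WT and 6.04 to 6.19 in AMPK KO, a difference of -0.43 (SE 0.16, adjusted p = 0.13). These are transcript levels, and FOXO activity depends largely on where the protein lies in the cell, which was not measured here.

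Of 19 genes known as FOXO targets, each of which was tested, 4 were lower and none was higher, with a median of -0.34. Pik3ip1, an inhibitor of PI3 kinase, was at 6.71 to 6.82 in WT and at 5.62 to 5.83 in AMPK KO, with a log2 fold change of -1.05 (SE 0.16, adjusted p = 0.00168). Irs2, an adaptor of the insulin receptor, changed by -1.02 (SE 0.22, adjusted p = 0.0148). Il7r, the receptor through which naive T cells receive survival signals, was at 9.52, 9.24 and 9.36 in WT and at 8.69, 8.75 and 8.65 in AMPK KO, a change of -0.68 (SE 0.13, adjusted p = 0.00976). The list did not move one way, because the means of 7 of its genes were higher in AMPK KO, among them Klf2 and the cell cycle inhibitor Cdkn1b (0.74, SE 0.24, adjusted p = 0.0875), which passed without WT replicate 2 or AMPK KO replicate 2. Among 12 genes that regulate FOXO proteins, such as Akt1 and Sgk1, limma called 0, and 5 had an unadjusted p under 0.05, as had 2405 of all 11279 genes. The count of 4 among the targets was 1 without WT replicate 1 or WT replicate 3, 2 without AMPK KO replicate 1 and 6 without AMPK KO replicate 2.

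Txnip lies at chr3:96557957-96561883 on the plus strand, and it varied more than any other of the 10 genes within both groups. Its log2 values were 5.04, 7.25 and 5.11 in WT and 7.23, 4.49 and 7.97 in AMPK KO, from 293, 1515 and 296 reads and from 1772, 231 and 2978 reads. WT replicate 2 was as high as AMPK KO replicate 1, and AMPK KO replicate 2 was the lowest of the 6 samples. The log2 fold change of 0.77 (SE 0.69, 95% interval -0.70 to 2.24, adjusted p = 0.561) did not pass, and the exact permutation test gave p = 0.7. Without AMPK KO replicate 2, the log2 fold change was 1.81 (adjusted p = 0.0119), the only one of 16 alternatives that passed. It was 1.496 without WT replicate 2 (adjusted p = 0.194), 0.39 without WT replicate 1, 0.42 without WT replicate 3 and 0.43 without AMPK KO replicate 1 (adjusted p of 0.839 to 0.871), and 0.06 without AMPK KO replicate 3 (adjusted p = 0.972). Gm15441, an antisense gene that spans Txnip, was at 2.44 to 4.13 in WT and at 2.26 to 2.84 in AMPK KO, with a difference of -0.56 (adjusted p = 0.484) that was -0.07 without WT replicate 2.

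The samples that were high and low for Txnip were also apart over all genes. When each gene's deviations from its group means were summarised, the first component held 42.5% of the variance and placed WT replicate 1, WT replicate 3 and AMPK KO replicate 2 at -12.6, -15.1 and -37.5, and WT replicate 2, AMPK KO replicate 1 and AMPK KO replicate 3 at 27.7, 10.2 and 27.3. No label names this division, it was found in the values themselves, and Txnip is one of the genes it was taken from. Within the first 3 samples, the AMPK KO minus WT difference of Txnip was -0.58, and within the other 3 it was 0.35. The difference of Tcf7 was -1.78 on the first side and -1.58 on the second, that of Lef1 -1.36 and -0.78, and that of Klf3 -1.56 and -0.79. Bach2 and Ets1 were lower on both sides as well, by unequal sizes: -1.46 and -0.30 for Bach2, and -1.01 and -0.49 for Ets1. Each side holds 1 or 2 samples of a group, so that these values carry no test.

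**Figure D3:**
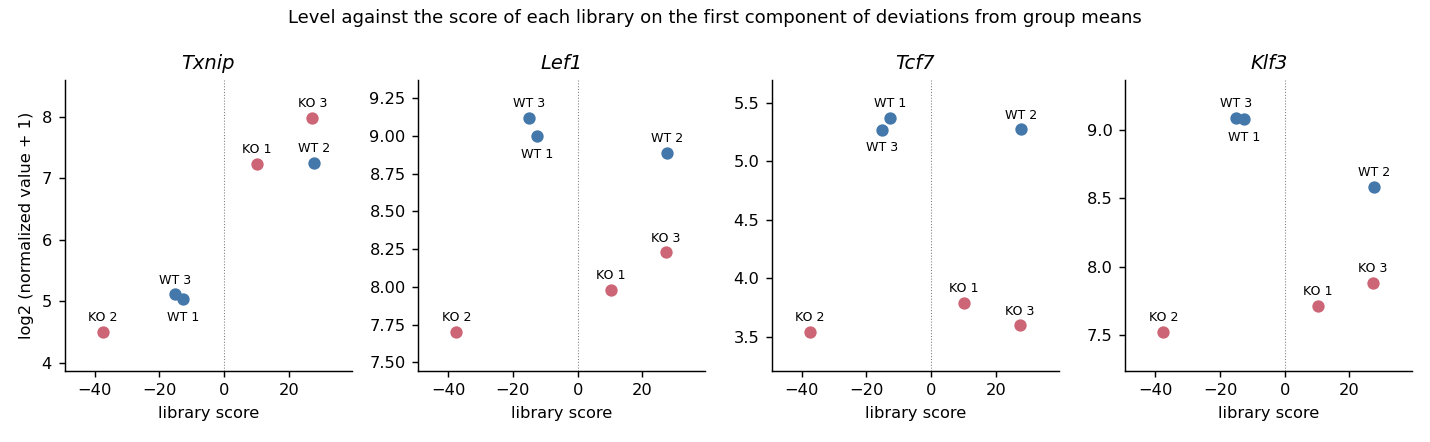
Log2 value of 4 genes (vertical axis) against the score of each library on the first component of the deviations from the group means (horizontal axis, no unit), with WT in blue and AMPK KO in red. Txnip is at 7.23 to 7.97 in the 3 libraries with scores above 0 and at 4.49 to 5.11 in the others, whereas the WT samples of Tcf7, Lef1 and Klf3 lie above those of AMPK KO on both sides of 0.

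The promoter of Txnip is printed because it holds both the FOXO motif (GTAAACA, in 3.17% of the 32851 promoters), 121 bases before the start, and a pair of E-boxes (CACGNG, then 5 bases, then CACGNG), 85 bases before it. This pair is the known carbohydrate response element through which the glucose sensors MondoA (Mlxip) and ChREBP (Mlxipl) act on Txnip. The pair was in 15 promoters of the table, 0.0457%.
Txnip, chr3:96557707-96557956, plus strand, FOXO motif and E-box pair in capitals: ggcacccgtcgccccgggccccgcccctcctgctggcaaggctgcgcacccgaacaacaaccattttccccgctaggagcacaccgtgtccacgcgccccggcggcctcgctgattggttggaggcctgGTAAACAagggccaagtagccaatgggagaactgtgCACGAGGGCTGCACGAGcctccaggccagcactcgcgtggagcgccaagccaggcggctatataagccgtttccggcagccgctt

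Of the 9 genes around Txnip, 8 were tested, 1 was higher and none was lower, with a median of 0.18 (0.11 without WT replicate 1 and 0.31 without AMPK KO replicate 3). Txn1, the thioredoxin that TXNIP binds, was at 5.05, 5.98 and 5.73 in WT and at 6.70, 6.22 and 6.63 in AMPK KO, a rise of 0.93 (SE 0.23, adjusted p = 0.0289) that was lost without WT replicate 1, WT replicate 3, AMPK KO replicate 1 or AMPK KO replicate 3. Mlxip was nearly equal in the groups (-0.06, SE 0.18, adjusted p = 0.891). Slc2a1, the glucose transporter that TXNIP removes from the cell surface, had a log2 fold change of 0.82 (SE 0.23, adjusted p = 0.0521), which passed without WT replicate 2 or AMPK KO replicate 2. Among the relatives of Txnip in the arrestin family, Arrdc2 rose from 1.85, 2.23 and 2.37 in WT to 3.34, 3.24 and 4.29 in AMPK KO (1.47, SE 0.38, adjusted p = 0.0344), which passed without WT replicate 2 or AMPK KO replicate 2 and with no other sample left out. Arrdc4, the relative that shares glucose control with Txnip, overlapped between the groups (0.70, SE 0.43, adjusted p = 0.375).

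Several other genes known to restrain T cell activation were lower in AMPK KO. Of 18 other quiescence regulators, 17 were tested, 5 were lower and 1 was higher, with a median of -0.29 that was -0.05 without AMPK KO replicate 2. The list did not move one way, because the means of 9 were lower in AMPK KO and those of 8 were higher. Slfn2, whose loss in mice breaks T cell quiescence, was at 8.69, 8.66 and 8.66 in WT and at 7.32, 7.57 and 7.31 in AMPK KO, a change of -1.27 (SE 0.14, adjusted p = 0.000117) that was called under each of 16 alternatives. Cblb, a ubiquitin ligase that dampens T cell receptor signals, changed by -0.92 (SE 0.22, adjusted p = 0.0251), and Pik3ip1, given among the FOXO targets, is the other of the 3 largest falls. The gene that rose was Klf4. The count of 6 in both directions was 2 without WT replicate 1, WT replicate 3 or AMPK KO replicate 1, and 11 without AMPK KO replicate 2.

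Of 12 other factors of T cell identity, 2 were lower and none was higher, with a median of -0.29. They were Ikzf1, the gene of IKAROS (-0.58, SE 0.13, adjusted p = 0.0205), and Bcl11b, which commits cells to the T lineage (-0.55, SE 0.15, adjusted p = 0.0397). Both calls were lost without WT replicate 1, WT replicate 3 or AMPK KO replicate 1, and that of Bcl11b also without WT replicate 2. Id3, an inhibitor of E proteins that is high in naive and stem-like T cells, had the opposite sign with overlapping groups (1.48, SE 0.46, adjusted p = 0.0693), and it passed without WT replicate 2 or AMPK KO replicate 2.

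Of 9 genes of the naive surface, 2 were lower and 1 was higher, with a median of -0.56 (-0.27 without AMPK KO replicate 2). For 8 of the 9 the groups did not overlap, against 25.6% of all genes tested. Il7r, given among the FOXO targets, was among the lower genes. Ccr7 (-0.56, adjusted p = 0.144) and S1pr1 (-0.56, adjusted p = 0.082) had differences that did not pass, although both passed without AMPK KO replicate 3, and that of Ccr7 was -0.27 without AMPK KO replicate 2. Dapl1, which is also high in naive cells, went the other way, from 6.97 to 7.17 in WT to 7.60 to 8.07 in AMPK KO (0.79, SE 0.15, adjusted p = 0.00924). None of the 9 was called without WT replicate 1, WT replicate 3 or AMPK KO replicate 1, and 2 were called without WT replicate 2.

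Of 14 genes of memory and effector T cells, 6 were higher, none was lower, and the means of all 14 were higher in AMPK KO, with a median of 0.74. Ccl5, a chemokine stored by memory and cytotoxic cells, rose from 6.57, 6.36 and 6.53 in WT to 7.98, 8.46 and 8.22 in AMPK KO (1.73, SE 0.16, adjusted p = 2.02e-05). S100a6, a calcium-binding protein, rose by 1.25 (SE 0.19, adjusted p = 0.00188). Cd44, the receptor that separates antigen-experienced from naive T cells, was at 6.05, 6.66 and 5.90 in WT and at 7.43, 7.15 and 7.55 in AMPK KO (1.17, SE 0.20, adjusted p = 0.00364). The count of 6 was 3 without WT replicate 1 or WT replicate 3, and 2 with the replicate block. Of 10 genes induced by activation, 1 was lower and 1 was higher, the means of 8 were lower and those of 2 higher, and the median was -0.29 (-0.48 without WT replicate 3 and -0.46 without AMPK KO replicate 2). Egr1, an immediate early gene of T cell receptor signalling, changed by -0.76 (SE 0.14, adjusted p = 0.00592), and Tnfrsf9, the costimulatory receptor 4-1BB, by 0.72 (SE 0.17, adjusted p = 0.0245). No activation gene was called without WT replicate 1, and 5 were called without AMPK KO replicate 2.

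**Figure D4:**
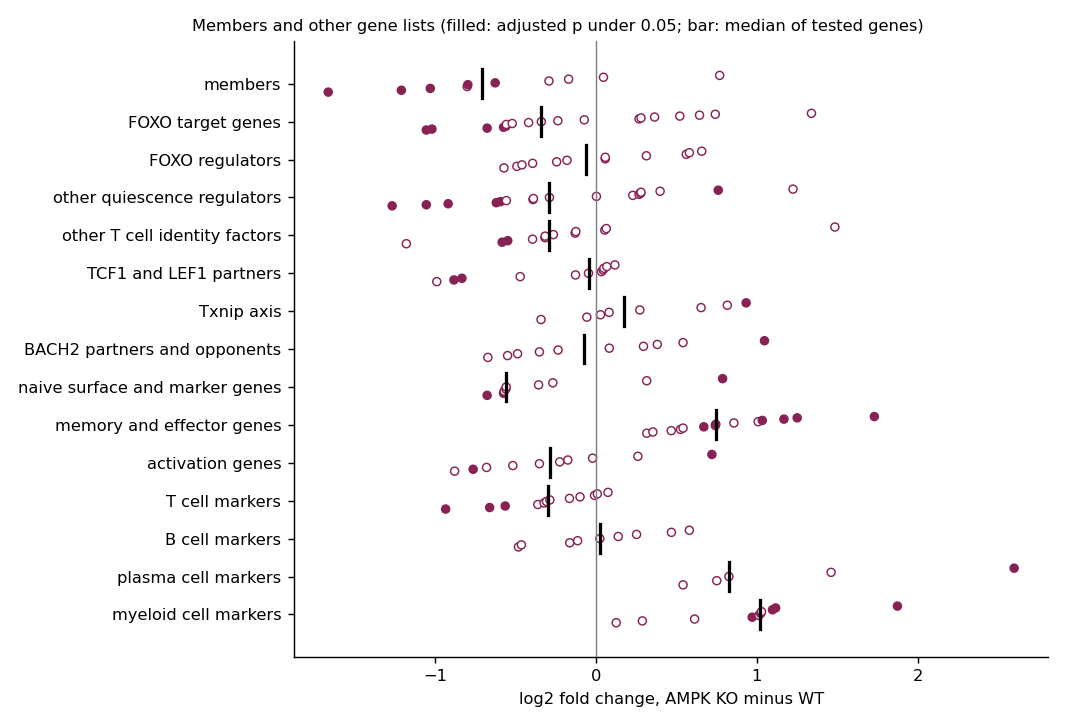
Log2 fold change, AMPK KO minus WT, of each tested gene of the 10 (members) and of 14 other lists, with filled points for an adjusted p under 0.05 and a bar at each list's median. Among the lists shown, the members have the lowest median, -0.71. The memory and effector genes lie entirely above 0, with a median of 0.74, as do the myeloid markers, with a median of 1.02.

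Markers of other cells moved with the groups beside these results. Of 12 T cell markers, 3 were lower and none was higher, with a median of -0.30 (-0.19 without AMPK KO replicate 1): Cd3g changed by -0.93 (SE 0.17, adjusted p = 0.00579), Cd3e by -0.66 (SE 0.15, adjusted p = 0.0239) and Cd28 by -0.56 (SE 0.16, adjusted p = 0.047). Their calls numbered 0 without WT replicate 1, 1 without WT replicate 3, AMPK KO replicate 1 or AMPK KO replicate 3, and 4 without AMPK KO replicate 2. Of 10 myeloid markers, 5 were higher, with a median of 1.02 and a summed normalized level of 532 to 614 in WT and 751 to 1236 in AMPK KO. Their 3 largest rises were Cd14 (1.87), Fcer1g (1.12) and Cd68 (1.10), and their calls numbered 2 without WT replicate 1 or AMPK KO replicate 1 and 3 without WT replicate 3. The plasma cell gene Jchain rose by 2.60 (SE 0.14, adjusted p = 5.77e-08), and it was the only one called of the 5 plasma cell markers tested. Jchain also made up most of the summed level of the 6 plasma cell markers, which was 91.4 to 100.4 in WT and 383 to 461 in AMPK KO. The sum of the 10 B cell markers was 295 to 325 and 291 to 350, with none called, a median of 0.02 (-0.15 to 0.16 as samples were left out) and the defining factor Pax5 at 0 to 5 reads. The neutrophil markers, of which 5 of 8 were tested, summed to 730 to 807 and 493 to 724, with none called, and the erythroid markers to 3470 to 4074 and 2467 to 4933, with none of 4 called. The NK cell markers summed to 98.3 to 122 and 144 to 186, with Klrk1 higher by 1.62 (SE 0.35, adjusted p = 0.0143; lost without WT replicate 1, WT replicate 3 or AMPK KO replicate 1), while Ncr1, which marks NK cells, was at 0 to 19 reads per WT library and at 0 to 7 in AMPK KO. The 2 CD8 T cell markers summed to 231 to 305 and 321 to 376, and the 5 regulatory T cell markers to 440 to 463 and 454 to 547, with none called in either list. The CD8 gene Cd8b1, at 7.17 to 7.61 in WT and 7.59 to 7.98 in AMPK KO, was above Cd4 in every library. Cd4 was at 6.53 to 6.83 in WT and 6.14 to 6.55 in AMPK KO. Their log2 fold changes were 0.38 for Cd8b1 (adjusted p = 0.197) and -0.36 for Cd4 (adjusted p = 0.224). Of the 5 sex-linked genes, Xist was higher and 3 of 4 Y-linked genes were lower, and without any 1 of the WT samples or AMPK KO replicate 1, Ddx3y was the only Y-linked gene still called. The part of these cells, and of the difference in Rn45s, in the values of the 10 genes was not tested. The falls of Tcf7, Klf3 and Lef1 were -1.74, -1.28 and -1.10 when the libraries were scaled to the reads outside Rn45s.

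**Figure D5:**
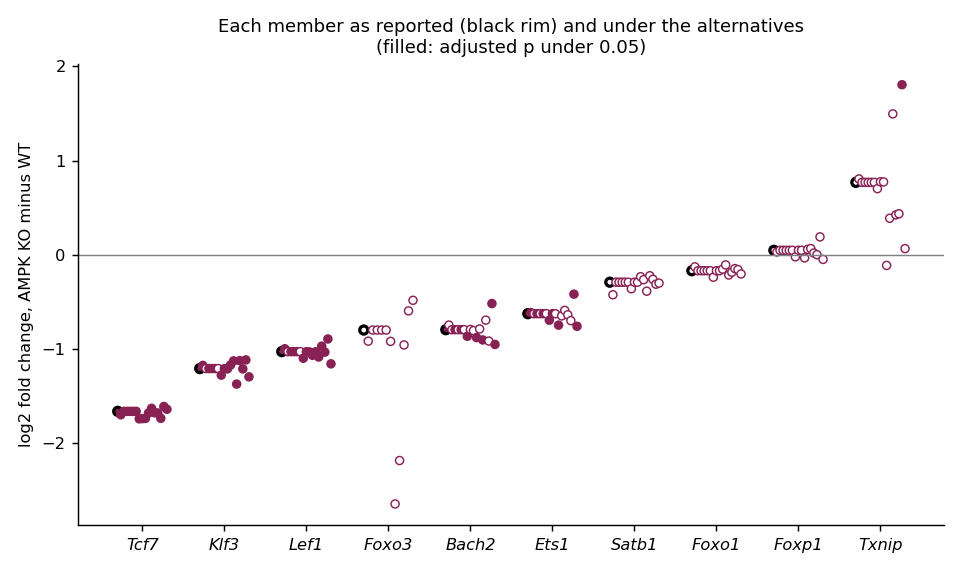
Log2 fold change of each of the 10 genes, AMPK KO minus WT, as reported (black rim) and under each alternative, with filled points for an adjusted p under 0.05. The points of Tcf7, Klf3 and Lef1 stay below -0.89, those of Foxo3 reach -2.65, and those of Txnip run from -0.11 to 1.81.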

How the data were processed

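RNA was sequenced from 3 WT and 3 AMPK KO samples of CD4 T cells, with the QuantSeq 3′ kit of Lexogen on 500 ng of RNA. The authors normalized the reads by TMM and CPM and deposited them as log2 values of the normalized level plus 1, with 1 value per gene symbol (35 symbols occur more than once). Per the labels, the submitters' processing notes name Bowtie2, bedtools and mm10, and the annotation and the use of strand are not given in the sources used here. Whole reads were recovered from the steps of the values (100% within 0.1 of a whole number, up to 100 reads).

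Genes with a mean log2 of at least 1 were tested with lmFit and eBayes (trend) of limma 3.58.1 in R 4.3.3, with genotype only, two-sided, with Benjamini-Hochberg adjustment over all genes and a threshold of 0.05. Fold changes are on the log2(value + 1) scale and understate those of low genes. Single values had an exact two-sided permutation test. The fit was tested on simulated data. The 10 genes and the 21 other lists were chosen with earlier results of these data known. All 10 genes, Prkaa1 and, of each list, the genes past the threshold (at most the 3 largest each way) were named by rule. Some genes of the lists are not reported here by name. Klf2, Bach2os and other genes that did not pass or lie outside the lists were chosen after their values were seen. Alternatives were quantile normalization, no filter, a filter at 3, a replicate block, robust or untrended spread, scaling outside Rn45s, voom on recovered reads, a pseudocount of 0.1 and leaving out each library. The division of the libraries was added after seeing the data. Gene positions are those of GENCODE M21, and plots used Python 3.11.15 with matplotlib 3.10.9.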

Additional observations from a re-analysis of the deposited data

How the results depend on the processing

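The number of the 10 genes past the threshold was 5 in the reported analysis, 1 without a filter on low values (Tcf7), 1 without the spread trend (Tcf7), 3 with a replicate block, 3 with a pseudocount of 0.1, and 3 to 6 as each library was left out. Of the 133 genes tested in the other lists, leaving out cell type markers and sex-linked genes, 26 were called, against 3 without a filter, 4 with the replicate block, 2 without the trend, 54 when the division of the libraries entered the model (chosen after seeing the data), and 6 to 46 as each library was left out. Over all genes, 637 were called, against 39 without a filter, 102 with the block, 73 without the trend, 1428 with the division term, and 127 to 1243 as libraries were left out. Among the fits that left out a library, the highest counts came without AMPK KO replicate 2 and the lowest without WT replicate 1, WT replicate 3 or AMPK KO replicate 1. The cause was not tested. The median of the 10 genes, -0.71, was -0.76 to -0.45 as libraries were left out, over the 9 genes other than Foxo3, which missed the filter, without any 1 of the WT samples or AMPK KO replicate 3. The sign changed only for Txnip and Foxp1: Txnip was at -0.11 with the division term and -0.58 among WT replicates 1 and 3 and AMPK KO replicate 2, and Foxp1 at -0.023 when scaled outside Rn45s, -0.034 with the division term, -0.22 among the same 3 samples and -0.05 to 0.19 as libraries were left out. Over the fold changes of the 10 genes, 128 values with a test kept direction and side of the threshold, 21 lost the call, 1 gained it, 4 changed sign and 1 (Foxp1 without AMPK KO replicate 1) had no direction. Whether samples with the same replicate number were paired is not in the labels, which give no shared litter or day. Deviations of same-numbered samples from their group means correlated at -0.08, -0.32 and -0.16. These values cannot decide it, because each same-numbered pair lies on opposite sides of the division of the libraries. Foxo3 alone among the 10 was close to the limit of detection, at 0 to 26 reads.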
